A study of Mus musculus with 41 samples.

Results

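Mature B cells were compared with small pre-B cells of the mouse, gene by gene, on Affymetrix expression arrays. The compared arrays were the 5 labelled Hardy Fraction F (mature recirculating B cells) and the 5 labelled Hardy Fraction D (small pre-B cells), which are 10 of the 41 arrays of the series. They were chosen by title alone, and every difference is F minus D on the scale of log2(signal + 32). The 5 arrays labelled Hardy Fraction E (immature B cells), the stage between them, were used to state which changes were already complete before the mature stage. All 3 groups came from flow-sorted cells of C57BL/6 mice with wild-type Pax5 and no treatment. The stage names in parentheses are those of the Hardy scheme, because the labels give neither the sorting gates, the tissue, the age nor the sex of the animals. Whether the 5 arrays of a group stand for separate mice is not stated either, and the p-values therefore cover the spread among arrays alone, part of which may be technical.

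A small pre-B cell has stopped dividing after the pre-B cell receptor burst and rearranges its immunoglobulin light chain genes with the RAG recombinase. An immature B cell carries a complete surface IgM, is tested for binding to self antigens and leaves the bone marrow. A mature recirculating B cell has stopped recombining, homes to the follicles of spleen and lymph nodes, presents antigen on MHC class II and depends on the B cell receptor and the BAFF receptor to survive.

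The 15 arrays had median signals of 111.2 to 132.9, and the 3' over 5' ratio of the Gapdh control probe sets, a measure of how short the amplified RNA is, averaged 5.06 ± 0.588 in F and 5.53 ± 0.407 in D (SD, n = 5 each). No 2 arrays held identical values. In each of D, E and F, replicates 2 and 3 had high Xist, and the other 3 had high Kdm5d, a Y-linked gene, so the groups were balanced for sex. E array 2 stood apart: 35 genes lay more than 2 log2 units above all other E arrays there, against 0 on any other E array. The summed signal of the 13 named neutrophil and granule markers, led by S100a9, reached 106810 on E array 2, whereas it was 8827 to 19910 in F and 18846 to 25705 in D. That array was also above the other 4 E arrays in its sums of small pre-B markers (30988 against 13726 to 15803), of cycling large pre-B markers (62818 against 36844 to 41915), of monocyte markers (37599 against 4771 to 8789) and of erythroid markers (38576 against 20245 to 22598). The counts of timing, and the genes whose timing class differs, are therefore also given without it. Between F and D, 0 of 11 tested neutrophil markers and 0 of 8 tested monocyte markers passed the test. Without E array 2 in the fit, Ngp (-0.80, adjusted p = 0.0092), a neutrophil granule protein, and Lyz1 (-0.64, adjusted p = 0.015), a lysozyme, were lower in F, and with the F and D arrays alone so was S100a9 (-0.61, adjusted p = 0.042). The 10 named erythroid markers summed to 18416 to 20478 in F and 22409 to 25886 in D. Their brightest member, Hba-a2, had a higher mean in F (11371) than in D (10063). Of 6 tested, 1, Tfrc (the transferrin receptor, also carried by dividing cells), was lower in F. Without E array 2 it was joined by Car2 (-0.71, adjusted p = 0.027), carbonic anhydrase. Of 4 tested T cell markers only Cd2 was higher in F, and Cd3e, Cd3d and Cd3g stayed under the array median on all 15 arrays. The part of these other cells in the results below was not tested.

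The arrays of both groups were first compared on markers of their labelled stages. Those markers were chosen with earlier results of these data known, so their counts are no independent check of the labels. Of 12 tested small pre-B markers 11 fell in F and 0 rose. Over all 10179 genes tested with limma the corresponding shares were 18.2% lower and 16.7% higher in F at an adjusted p under 0.05 (Benjamini-Hochberg), 34.9% in all. Rag1, a subunit of the recombinase, had signals of 2149, 2632, 3029.5, 3078 and 2316 in F, against 13176, 12698, 14047, 15270.4 and 15059 in D. Rag2, the other subunit, had 138, 134, 265, 179 and 305 in F, against 2530.5, 2713, 2686, 2749 and 2639.9 in D. Every F array lay below every D array for both genes. The log2 differences were -2.41 ± 0.15 (SE, adjusted p = 5.5e-11) for Rag1 and -3.57 ± 0.24 (SE, adjusted p = 7.4e-11) for Rag2. Il7r, the interleukin 7 receptor chain, had 1686, 1529, 1246, 1549 and 1487 in F, against 14744, 12445, 12446, 13353 and 12437 in D, again without overlap (log2 difference -3.10 ± 0.16 SE, adjusted p = 1.9e-12). Vpreb1, a component of the surrogate light chain that pairs with the heavy chain before light chains exist, had 1097, 903, 857, 471 and 462 in F, against 14348, 11347, 12209, 9968 and 12627 in D. Its difference of -4.01 ± 0.60 (SE, adjusted p = 0.00017) had a wide error with E array 2 in the fit, and with the 10 F and D arrays alone its adjusted p was 1.1e-10. Dntt, the polymerase that adds bases at recombination joints, gave 214, 253, 103, 76.2 and 122 in F, against 3812, 3196, 2072, 1702 and 2802 in D and differed by -3.93 ± 0.70 (SE, adjusted p = 0.00064). Sox4 (-2.95), Erg (-3.58), Cplx2 (-2.34), Vpreb3 (-2.18), Cd93 (-1.80) and Bfsp2 (-0.54) were also lower in F by log2 difference. Bfsp2 was the weakest of these, with overlapping arrays, and lost its call without any of 7 single arrays. Igll1, the other surrogate light chain component, did not pass on its brightest probe set (log2 difference -0.18 ± 0.10 SE, adjusted p = 0.17), but with its probe sets averaged it differed by -2.04. In such bulk samples, fewer cells of a type and less RNA per cell cannot be told apart.

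Of 12 tested mature B markers 11 rose in F and 0 fell. Cxcr5, the chemokine receptor that leads B cells into follicles, had 669.6, 1361, 1083, 1213 and 1327 in F, against 4.7, 5.7, 3.3, 18.1 and 3.5 in D. All D arrays were near the bottom of the scale and every F array was far above them, and the difference was 4.87 ± 0.20 (SE, adjusted p = 1.3e-14). Cd83, a surface protein of activated and mature B cells, had 2926, 2962, 3780, 2355 and 3005 in F, against 50.7, 98.4, 80.9, 90.4 and 65.3 in D, also without overlap (log2 difference 4.80 ± 0.16 SE, adjusted p = 2.6e-16). Cr2, the complement receptor CD21, had 1879, 2019, 2419, 2084 and 1962 in F, against 129, 163, 188, 97.1 and 95 in D and differed by 3.69 ± 0.19 (SE, adjusted p = 3.1e-13). Fcer2a, the low-affinity IgE receptor CD23, differed by 3.66 ± 0.27 (SE, adjusted p = 2.1e-10) with means of 934 ± 297 in F and 44.4 ± 25.6 in D (SD, n = 5 each). Cr2 and Fcer2a are both surface markers used for mature B cells. Fcmr, the IgM Fc receptor (2.51), Cd55, a complement inhibitor (1.92), Cd22, a brake on the B cell receptor (1.85), S1pr1, which lets lymphocytes leave tissues (1.66), Il4ra (1.50), Ccr7 (1.47) and Tnfrsf13c, the BAFF receptor (0.99), were higher in F by log2 difference. The other probe sets of Il4ra were not called (0.06 to 0.70). Klf2, a factor of quiescent lymphocytes, did not pass (log2 difference 0.32 ± 0.18 SE, adjusted p = 0.18), though it did with the replicate number as a block (adjusted p = 0.024). Ighd and Cd38 were not named by the annotation table and were not analysed here.

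**Figure D1:**
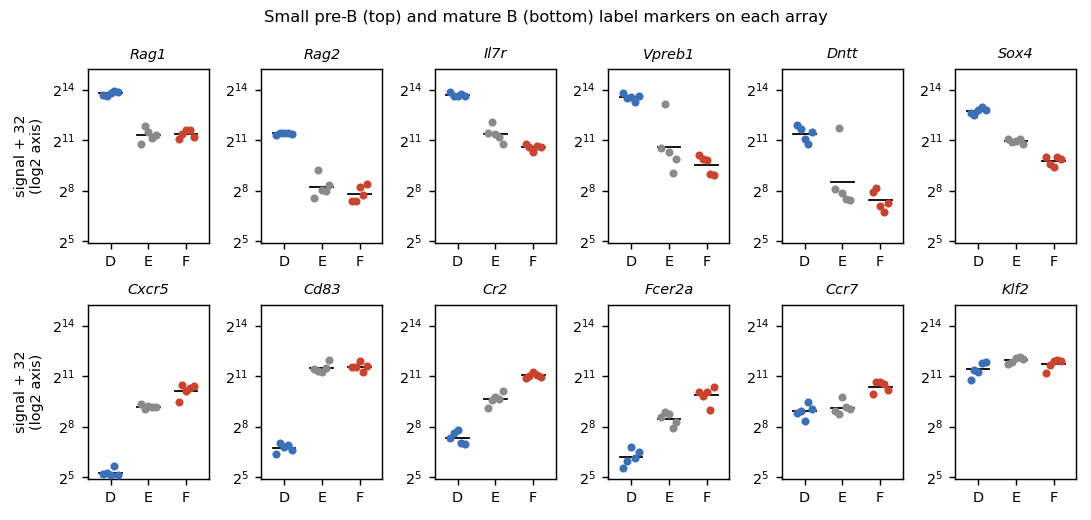
Signals of 12 label markers on each array, with one point per array, the groups D, E and F on the horizontal axis and signal + 32 on a log2 axis; bars are means of the log2 values. In Rag1 and Cd83 the E arrays sit at the level of F, whereas in Cr2 and Fcer2a they lie between D and F and in Ccr7 they lie near D. The single high E point in Vpreb1 and Dntt is E array 2.

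The genes that define B cells at both stages changed less. Of 11 tested pan-B genes 4 rose and 2 fell. Ms4a1, which encodes CD20, had 20209, 19921, 22138, 21348 and 22249 in F, against 1422, 1926, 3017, 2865 and 3403 in D, without overlap, and differed by 3.12 ± 0.18 (SE, adjusted p = 2.1e-09). Ptprc, which encodes CD45 with its B220 form, was higher in F (0.80), as were the signalling chains of the B cell receptor Cd79a (0.77) and Cd79b (0.57). The adaptor Blnk (-0.73) and the pioneer factor Ebf1 (-0.57) were lower. Pax5, the B lineage commitment factor, had means of 1981 ± 327 in F and 1717 ± 272 in D (SD, n = 5 each) with overlapping arrays and did not pass (log2 difference 0.20 ± 0.14 SE, adjusted p = 0.3). Its other probe set rose by 0.61, and with probe sets averaged Pax5 passed (0.41, adjusted p = 0.044). Blk, Cd72, Pou2af1 and Spib did not pass either, with log2 differences of -0.19 to 0.20. Pou2af1 passed after quantile normalization (-0.27, adjusted p = 0.00051).

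Over all 10179 genes tested, 1703 rose and 1854 fell (16.7% and 18.2%). Of these, 520 rose and 572 fell by at least 2-fold (5.11% and 5.62% of genes tested). Counts of list members below are to be read against the 16.7% and 18.2%. All 5 F arrays lay above all 5 D arrays for 1138 genes and below them for 1236, together 23.3%. Each change was then placed in time from the same fit, with its E minus D and F minus E parts. A change was called complete in E where E already differed from D in the same direction and F minus E did not pass the test. E minus D also had to be at least 75% of F minus D. A change was in 2 steps where both parts passed in the same direction, after E where only the second did, and past the F level where E had gone beyond F. Not passing does not show that E equals F, and a change in 2 steps can have a larger share in E than a complete one. All others were unresolved. E differed from D for 26.4% of genes tested, and F from E for 7.23% (3.25% up and 3.98% down). Shares complete in E come from comparisons that share arrays, so they carry no test of their own. Of the 3557 changes, 1508 were complete in E (42.4%; 43% of rises and 41.9% of falls), 238 were in 2 steps, 300 came after E, 53 went past the F level and 1458 were unresolved. Among the 1092 changes of at least 2-fold, 562 were complete in E (51.5%), 178 were in 2 steps, 70 came after E and 13 went past. Rises and falls of that size were complete at similar shares, 49.8% and 53%. The median share of the F minus D difference already present in E was 78.6% for these rises and 79.4% for these falls. Without E array 2, 1489 of 3563 changes were complete in E and 89 went past the F level. Of the called genes named here 20 had another class without it. Of these, 14 became complete in E: Atm, Btla, Cd74, Cplx2, Dntt, Egr2, Fcmr, Herpud1, Ly86, Nxpe4, Rsph9, Slc12a3, Tap2 and Vpreb1. Bcl11a and Myc were no longer complete, Bcl11a going past the F level, and the other 4 were Irf4, Jak1 and Mxi1, which became unresolved, and Pim1, which moved in 2 steps.

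**Figure D2:**
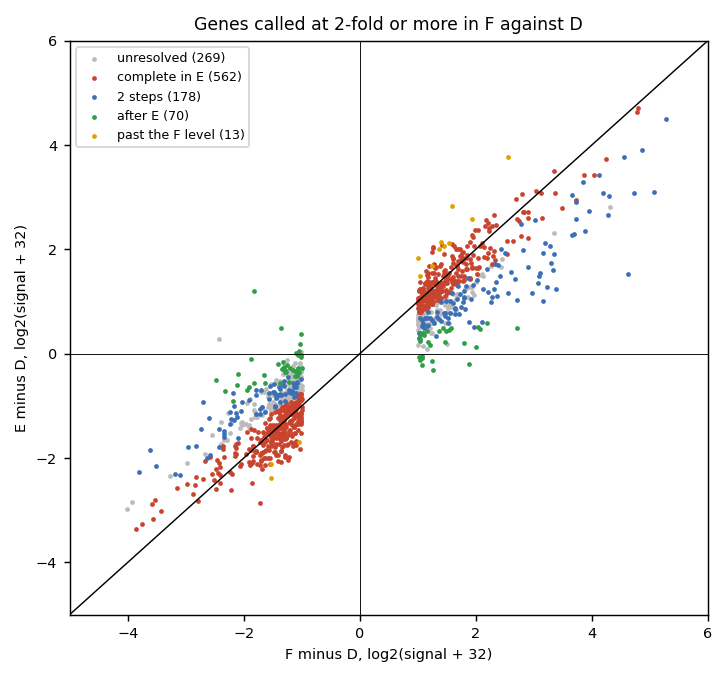
E minus D (vertical) against F minus D (horizontal), both in log2(signal + 32), for the 1092 genes called at 2-fold or more, with one point per gene coloured by its timing. Points on the diagonal had reached the F level in E, and the 178 changes in 2 steps lie between the diagonal and the horizontal axis by definition. The axes share the D arrays.

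The largest rises that also had no overlap between arrays were led by Egr3, a zinc finger factor induced by antigen receptor signals. Its signals were 4769, 4555, 4221, 5252 and 4058 in F, against 112, 57.8, 82.9, 79.4 and 103 in D, and the difference was 5.29 ± 0.15 (SE, adjusted p = 1.4e-17), which is 39.1-fold on this scale. Adding 32 before taking the logarithm understates folds of low signals such as those of D here. Ms4a4c, a CD20 family membrane protein, followed with 3509 ± 435 in F and 75.8 ± 24.9 in D (SD, n = 5 each) and 5.07 ± 0.17 (SE, adjusted p = 2.6e-16). Behind Cxcr5 and Cd83 came Bhlhe40, a transcriptional repressor (4.78), Icosl, the ligand of the T cell costimulator ICOS (4.73), Gimap4 (4.62), Nxpe4 (4.56), H2-Eb1 (4.31), Bcl2 (4.29), Rasgef1b (4.29), Cd200, an inhibitory ligand (4.25), H2-DMb2 (4.20), Tlr1 (4.12) and Rab30 (4.04). Of these 15 genes, Cd83, Bhlhe40, Cd200 and Rab30 were complete in E, and so was Nxpe4 without E array 2. Cd83 averaged 2836 ± 599 and Bhlhe40 1274 ± 371 in E (SD, n = 5), which were 98.1% and 96.9% of their differences. Ms4a4c and Icosl were at 61.1% and 65.2% of theirs and Gimap4 at 33%.

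The largest falls were those of Vpreb1 and Dntt. Next was P2rx3, an ATP-gated channel, with 93.3, 16.9, 6.6, 47.6 and 6.1 in F, against 1163, 987, 562, 743 and 767 in D and a difference of -3.85 ± 0.33 (SE, adjusted p = 2.8e-09). Gfra1, a receptor for the growth factor GDNF, had 192, 139, 106, 119.6 and 115 in F, against 2002, 2012, 2047, 2716 and 2558 in D and differed by -3.80 ± 0.23 (SE, adjusted p = 5.2e-12). No F array reached the lowest D array for either gene. Rbm24 (-3.76), Tmprss3 (-3.61), Erg, a stem and progenitor cell factor, Rag2, Trim2 (-3.53), Elovl6, a fatty acid elongase (-3.51), Gpr12 (-3.42), Rsph9 (-3.28), Slc12a3 (-3.19), Sertad4 (-3.15) and Il7r completed the 15. P2rx3, Rbm24, Trim2, Gpr12 and Sertad4 were complete in E, as were Rag1, Rag2 and Erg. Gfra1 was at 59.7%, Tmprss3 at 51.1% and Elovl6 at 61.6% of their differences in E, and each passed the F minus E test too. The steps of Vpreb1 and Dntt were unresolved with all arrays and complete in E without E array 2: Vpreb1 had 1439, 9195, 1222, 499 and 897 in E and Dntt 247, 3289, 196, 149 and 139.

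The recombination machinery did not move as a whole. Of 15 tested genes of V(D)J recombination and end joining, 7 fell and 4 rose. The falls joined Rag1, Rag2 and Dntt with Lig4, the ligase that seals the joints, which had 638, 432, 493, 433 and 524 in F, against 3570.2, 3912, 3597, 3784 and 3741 in D and differed by -2.82 ± 0.15 (SE, adjusted p = 7.4e-13). Lig4 fell in 2 steps, with 62.6% of its difference present in E. The general repair genes Xrcc5, which encodes Ku80 (0.85), the kinases Atm (0.55) and Prkdc (0.44), and Trp53bp1 (0.43) rose, Prkdc losing its call without any of 8 single arrays and Trp53bp1 with probe sets averaged (0.24, adjusted p = 0.089). None of the 5 other probe sets of Trp53bp1 passed. Of 9 tested pre-B cell receptor genes 4 fell (Vpreb1, Vpreb3, Blnk and Ighm) and 2 rose (Cd79a and Cd79b). Vpreb3 had 34.9% of its fall in E. The fall of Ighm, the IgM heavy chain, was small (log2 difference -0.23 ± 0.08 SE, adjusted p = 0.025), its arrays overlapped, it did not pass without D array 5, F array 2 or F array 5, and another probe set of the gene rose by 0.65.

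Interleukin 7 receptor signalling was split between its members. Of 12 tested genes 4 fell and 4 rose. With Il7r the falls were Socs2, a feedback inhibitor (-2.55), Ccnd3, a D-type cyclin of pre-B cells (-1.49), and Pim1, a STAT5 target kinase (-0.91). Another probe set of Ccnd3 rose by 1.11, so its direction rests on the probe set. The other probe set of Pim1 was not called (-0.44). The rises were Bcl2, Ccnd2 (2.80), Mcl1 (0.98) and Jak1 (0.86). Stat5a, Stat5b, Socs3 and Crlf2 did not pass, although Stat5a did with probe sets averaged (0.53, adjusted p = 0.0011) or with the replicate number as a block (0.36, adjusted p = 0.028). Il7r itself fell in 2 steps, with means of 13085 ± 1008 in D, 2698 ± 945 in E and 1499.6 ± 160 in F (SD, n = 5 each). Bcl2, which blocks the mitochondrial death pathway, had 7638, 7671, 6423, 6983 and 7395 in F, against 346, 263, 397, 388 and 315 in D and differed by 4.29 ± 0.11 (SE, adjusted p = 2.9e-18). Its E arrays, at 2982, 2796, 3014, 2928 and 3099, lay above all D and below all F arrays, and its rise was in 2 steps at 70.3%.

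Among 16 tested survival and death genes 4 rose and 3 fell, close to the background. Bcl2l1, which encodes Bcl-xL, moved opposite to Bcl2: it had 155, 139.8, 255, 310.1 and 148 in F, against 1057, 1076, 1098, 1553 and 1748 in D, without overlap, and differed by -2.55 ± 0.27 (SE, adjusted p = 9.6e-08). That fall was complete in E (91%). Besides Bcl2, the rises were Bid, a death agonist (1.24), Mcl1 and Xiap (0.39), one probe set of which went the other way and which did not pass with probe sets averaged. The other probe sets of Bid were not called (0.22 to 0.76). Apaf1, the apoptosome scaffold (-0.56), and Bcl2l11, which encodes Bim (-0.37), fell, and the arrays of Bcl2l11 overlapped and its call was lost without any of 4 single arrays. Of 23 tested genes of PI3K, Akt and Foxo signalling 2 rose and 6 fell, together close to the 34.9% called over all genes tested. Gab2, a scaffold adaptor, differed by -2.04 ± 0.23 (SE, adjusted p = 2.4e-07), Gab1 by -1.32, the kinase Mtor by -1.17 and the catalytic subunit Pik3cg by -0.86. The other tested probe sets of Gab2 (-0.23) and Mtor (-0.94 to 0.09) were not called. Inpp4b, a phosphatase of the pathway (1.45), and Sesn1 (0.57) rose. Gab1 and Mtor were complete in E, whereas Pik3cg and Sesn1 changed after E.

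Most tested genes of cell division were lower in F. The 10 named markers of cycling large pre-B cells, led by Mki67, summed to 62432 to 74916 in D and 35989 to 49196 in F. All 10 were tested, and 5 fell and 2 rose. The part of cycling cells in the D arrays was not tested. Of 28 tested genes of DNA replication and S phase 24 fell and 0 rose, with a median log2 difference of -0.89 against -0.02 over all genes tested. Of 29 tested genes of G2 and mitosis 26 fell and 0 rose, with a median of -1.33. Ccnb2, a mitotic cyclin, had 822, 1195, 908, 1013 and 1067 in F, against 4208, 3719, 3186, 3392 and 3084 in D, with every F array below every D array (log2 difference -1.78 ± 0.18 SE, adjusted p = 6.6e-08). Cdca3, which helps degrade mitotic inhibitors, had 488, 881, 698, 1061 and 499.6 in F, against 2469, 2701, 2195, 2252 and 2260 in D and differed by -1.73 ± 0.22 (SE, adjusted p = 2.5e-06). Bub1b, a spindle checkpoint kinase (-1.70), and Kif2c, a kinesin (-1.63), fell as well. In the S phase list, Uhrf1, which maintains DNA methylation, had 1136, 2501, 1544, 1862 and 2290.5 in F, against 7036, 6964, 6641, 5187 and 4307 in D and differed by -1.70 ± 0.19 (SE, adjusted p = 5.8e-07). Mcm2, a helicase subunit (-1.48), Cdc6, a licensing factor (-1.47), and Tyms, which makes thymidylate (-1.69), fell too, though the other probe set of Tyms was not called (-0.11). F still had signal for these genes: Ccnb2 averaged 1001 ± 144 in F and 3518 ± 456 in D (SD, n = 5 each). Mki67, the proliferation antigen, did not pass on its single probe set (log2 difference -0.29 ± 0.13 SE, adjusted p = 0.095), but passed with the F and D arrays alone (adjusted p = 0.0074), without E array 2 (adjusted p = 0.0052) and after quantile normalization (-0.59, adjusted p = 0.00059). It was 13055 to 18047 in F, against 18399 to 21585 in D, with no overlap.

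Both cell division lists had nearly all of their change in E. Of the 24 S phase falls 21 were complete in E, and of the 26 mitotic falls 25, against 41.9% of all falls. The median E minus D difference of the mitotic list was -1.70, beyond its F minus D median, and its median F minus E difference was 0.36. Without E array 2, on which Ccnb2 was 1797 against 732.7 to 853.1 on the other E arrays, 15 mitotic falls were complete and 12 went past the F level. Kif23, a kinesin of cytokinesis, went past with and without that array, at 3701 ± 163 in D, 1463 ± 636 in E and 2404 ± 625 in F (SD, n = 5 each). Cep55 and Spc24, of the abscission and kinetochore machinery, did the same, with F minus E differences of 0.57 and 0.65.

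Promoters of 2 mitotic genes are shown because genes of this list fell together and many such promoters carry the same short element. The windows are RefSeq promoter sequences of build GRCm38.p6, 250 bases before to 50 after the gene start, read in the direction of the gene. Capitals mark TTTGAA, the core of the cell cycle homology region, searched on both strands. Ccnb2 is at chr9:70421505-70421804 on the minus strand and Cdca3 at chr6:124829926-124830225 on the plus strand.
Ccnb2: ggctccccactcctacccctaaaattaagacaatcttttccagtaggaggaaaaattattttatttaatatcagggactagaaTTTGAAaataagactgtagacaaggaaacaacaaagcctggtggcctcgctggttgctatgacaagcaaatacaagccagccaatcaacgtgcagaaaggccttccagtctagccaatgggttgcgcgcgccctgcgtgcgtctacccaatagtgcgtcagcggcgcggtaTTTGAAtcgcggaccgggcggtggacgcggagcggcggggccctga
Cdca3: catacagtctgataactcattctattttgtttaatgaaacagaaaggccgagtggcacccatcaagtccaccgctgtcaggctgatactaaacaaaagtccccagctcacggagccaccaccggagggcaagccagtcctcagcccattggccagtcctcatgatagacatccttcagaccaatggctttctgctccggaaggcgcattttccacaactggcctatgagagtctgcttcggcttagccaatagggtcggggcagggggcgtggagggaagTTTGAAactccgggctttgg
The element was found in 19 of 24 genes of the G2 and mitosis list that had a window (79.2%), against 1214 of 8301 tested genes with a window (14.6%). Ccnb2 held 2 copies. A second element, CCAAT, searched in the same way, was in 20 of the 24 (83.3%) against 43.3% of tested genes. A match describes the letters of the window and is not evidence of binding.

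Control of the G1 phase was mixed. Of 25 tested genes 13 fell and 5 rose. Ccnd2, a D-type cyclin, had 3932, 6529.9, 7102, 5952 and 6834 in F, against 1386, 753, 1719, 556 and 378 in D, without overlap, and differed by 2.80 ± 0.34 (SE, adjusted p = 1.7e-05), opposite to the probe set used for Ccnd3. Myc, a transcription factor that drives cell growth and ribosome production, had 2421, 2116, 1699, 2147 and 1551 in F, against 617, 322, 463, 203 and 334 in D and differed by 2.33 ± 0.20 (SE, adjusted p = 3.3e-09). Ccnd2 was complete in E, and Myc was complete at 77.1% but unresolved without E array 2. The quiescence-linked Tsc22d3 (1.22) and Txnip (0.61) also rose. The falls included the Myc antagonist Mxi1 (-1.45) and the cyclin kinase inhibitors Cdkn2c (-1.30) and Cdkn1a (-1.29). Of 16 tested chromatin and HMG genes 7 fell and 2 rose. Smarca4, the BRG1 remodeller ATPase, had 2553, 2630.4, 2759, 2938 and 2646 in F, against 9440.3, 10632, 9260.4, 10317 and 10713 in D, and Ezh2, which writes H3K27 methylation, had 2715, 3469, 3345, 3288 and 3335 in F, against 11166, 10246, 10275, 10039 and 9662 in D. Neither gene overlapped between groups, with differences of -1.88 ± 0.12 (SE, adjusted p = 3.4e-11) and -1.66 ± 0.10 (SE, adjusted p = 4.2e-12), and both were complete in E at 97.9% and 105%. Lmnb1 (-1.21) and Hmgb3 (-0.73) fell, and Hmgn1 (0.50) and Chd4 (0.53) rose, the call of Chd4 being lost without any of 7 single arrays. Hmgn1 was at 0.01 after quantile normalization.

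Antigen presentation on MHC class II rose broadly. Of 15 tested genes 13 rose and 0 fell. All 13 had every F array above every D array, against 11.2% of all genes tested. The median log2 difference was 2.26. H2-Eb1, the I-E beta chain, had 2731, 3060.4, 2618, 2839 and 3774 in F, against 38.6, 112, 31, 382 and 274 in D. The D arrays ranged widely but stayed far below F, and the difference was 4.31 ± 0.43 (SE, adjusted p = 1.6e-06). Cd74, the invariant chain that escorts class II molecules, had 14495, 12481, 13450.3, 15203 and 12748 in F, against 617, 954, 726, 1095 and 1376 in D and differed by 3.85 ± 0.15 (SE, adjusted p = 9.1e-14). H2-DMa and H2-DMb2, which together load peptides, differed by 3.49 ± 0.26 (SE, adjusted p = 2e-10) and 4.20 ± 0.17 (SE, adjusted p = 9.1e-14). The following genes of the list were chosen after their values were seen: H2-Aa (2.91) and H2-Ab1 (2.55), the I-A chains, H2-Eb2 (1.79), and Ciita, the class II transactivator (2.26). Ciita had 533, 429, 558, 509 and 505 in F, against 98.1, 131, 69.9, 50.6 and 65.7 in D. Only Rfxank and Rfxap, subunits of the promoter complex, did not pass.

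Of the 13 class II rises 4 were complete in E and 7 were in 2 steps, or 6 in 2 steps without E array 2. Over all changes between F and D, 42.4% were complete in E and 6.69% were in 2 steps. Among changes of at least 2-fold these shares were 51.5% and 16.3%. H2-Aa had means of 1840.3 ± 629 in D, 5793 ± 1543 in E and 13442 ± 1152 in F (SD, n = 5 each), which put E at 57% of the difference. H2-Ab1 was at 45.5% and Ciita at 43.4%. H2-Eb2 came after E, with 41.4 to 134 in D, 86.4 to 119 in E and 223 to 576 in F, so that only the F arrays stood apart. Cd74 was at 85.5% and H2-DMa, complete in E, at 79.8%. The timing of H2-Eb1 was unresolved, as its F minus E difference of 1.49 did not pass (adjusted p = 0.052).

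**Figure D3:**
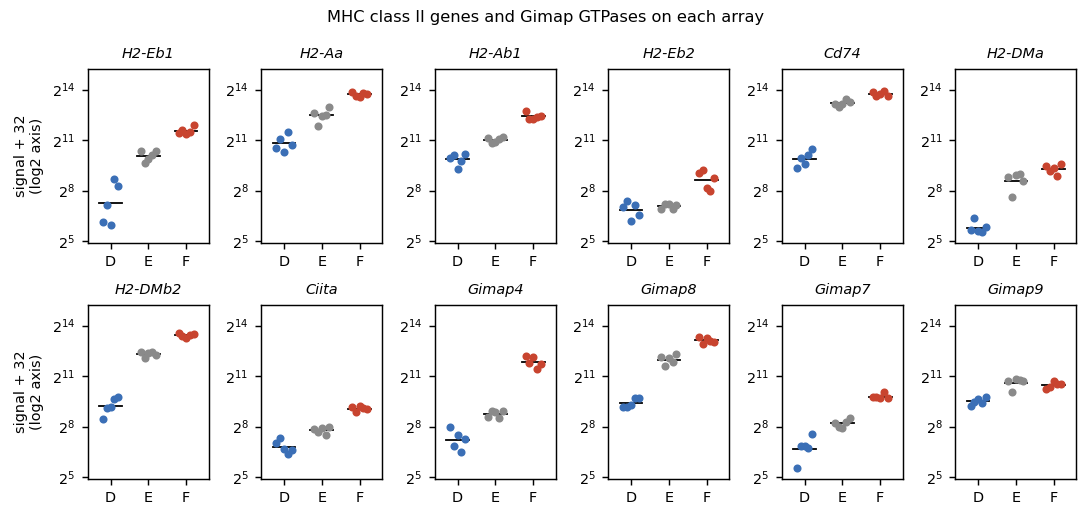
Signals of 8 MHC class II genes and 4 Gimap genes on each array, with one point per array, the groups D, E and F on the horizontal axis and signal + 32 on a log2 axis; bars are means of the log2 values. E lies between D and F for H2-Aa, H2-Ab1, Ciita, Gimap8 and Gimap7, near D for H2-Eb2 and at the F level for Gimap9.

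Class II promoters are known for a conserved Y box, bound by NF-Y, and the windows of 2 genes that hold it are shown, taken from RefSeq (GRCm38.p6) as above. Capitals mark CTGATTGG, searched on both strands. H2-Eb1 is at chr17:34305617-34305916 on the plus strand and H2-Aa at chr17:34287774-34288073 on the minus strand.
H2-Eb1: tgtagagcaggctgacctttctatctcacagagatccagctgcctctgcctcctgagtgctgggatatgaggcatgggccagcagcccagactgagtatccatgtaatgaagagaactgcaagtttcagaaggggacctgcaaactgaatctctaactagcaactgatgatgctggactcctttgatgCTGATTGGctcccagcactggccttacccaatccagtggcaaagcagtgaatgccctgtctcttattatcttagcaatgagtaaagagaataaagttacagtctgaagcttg
H2-Aa: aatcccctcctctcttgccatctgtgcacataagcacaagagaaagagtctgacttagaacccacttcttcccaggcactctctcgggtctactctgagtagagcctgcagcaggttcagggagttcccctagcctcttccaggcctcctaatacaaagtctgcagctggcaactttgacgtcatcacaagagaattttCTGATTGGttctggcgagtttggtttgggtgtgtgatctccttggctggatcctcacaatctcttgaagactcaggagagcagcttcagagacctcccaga
The same 8 letters were in 4 of 11 class II list genes with a window (36.4%), H2-Aa, H2-Eb1, H2-Eb2 and, named for the match alone, H2-Oa, against 6.88% of tested genes with a window. The Y box letters were also in 6 of the 24 mitotic genes (25%), and CCAAT was in 9 of the 11 class II genes (81.8%), so neither motif was confined to 1 list. The Y box letters hold ATTGG, the reverse complement of CCAAT, so the searches overlap. As before, a match is a description of the letters.

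MHC class I changed less. Of 14 tested genes of class I and peptide loading 9 rose and 0 fell, with a median log2 difference of 0.36. Tap2, a peptide transporter subunit (0.96), Tapbp, the tapasin chaperone (0.90), Psmb8, an immunoproteasome subunit (0.84), and Erap1, a trimming peptidase (0.60), rose most, though Erap1 did not pass without any of 4 single arrays. Tapbp had 4569, 5234, 5537, 4507 and 5830.1 in F, against 2280.5, 2387, 2526, 3050.3 and 3516 in D, without overlap, and was complete in E. Its other probe set was not called (0.47). Of 20 tested interferon response genes 10 rose and 1 fell. Of these 11 changes 8 were complete in E, against 42.4% of all changes. Sp100, a nuclear body protein, had 4336, 4545, 4403, 5026 and 4959.5 in F, against 1477, 1314, 1383, 1852 and 1618 in D and differed by 1.59 ± 0.11 (SE, adjusted p = 4.2e-11). Gbp2, a guanylate-binding GTPase (1.21), and Mx1, an antiviral GTPase (1.14), rose, and Ifit2 fell (-0.83).

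B cell receptor signalling genes mostly rose: of 25 tested 16 rose and 2 fell, the falls being Blnk and Pik3cg. After Cr2, the largest rises were those of Bank1, Rasgrp3 and Malt1. Bank1, a scaffold for receptor kinases, had 5109, 4205, 5505, 4534 and 4775 in F, against 374, 384, 607, 352 and 508 in D, without overlap (log2 difference 3.37 ± 0.14 SE, adjusted p = 1.8e-14). Rasgrp3, which activates Ras, differed by 2.35 ± 0.15 (SE, adjusted p = 1.3e-11), and Malt1, a paracaspase that relays receptor signals to NF-kappaB, by 1.66 ± 0.14 (SE, adjusted p = 1.5e-09). Syk, the proximal kinase, did not pass on its brightest probe set (log2 difference 0.07 ± 0.10 SE, adjusted p = 0.62). Its 3 other tested probe sets were lower in F (-0.48 to -0.21), and 1 of them was called. Bank1 and Malt1 were complete in E, whereas Rasgrp3 rose in 2 steps (58.1%). The brakes rose as well: of 17 tested inhibitory receptors and phosphatases 9 rose and 1 fell. Btla, an inhibitory receptor, had 20563, 18556, 19156, 18612 and 19142 in F, against 2299.8, 2569, 2736, 2963 and 3338 in D and differed by 2.78 ± 0.08 (SE, adjusted p = 2.1e-17). Ptpn22, a phosphatase that limits receptor signals, was near the bottom of the scale in D: it had 582, 603, 348, 218 and 496 in F, against 35.4, 34.5, 1.7, 1 and 11.2 in D (log2 difference 3.29 ± 0.33 SE, adjusted p = 2.7e-08). Fcrl1 (2.19) and Pirb (2.05) rose and Fcrla fell (-0.61). Pag1, an adaptor that recruits an inhibitory kinase, went past the F level in E: its means were 778 ± 46.5 in D, 2591 ± 274 in E and 1886 ± 186 in F (SD, n = 5 each).

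Other surface genes of mature B cells followed: of 27 tested 22 rose and 2 fell. Of these 24 changes 15 were complete in E, against 42.4% of all changes. Cd40, the receptor for T cell help, had 4578, 5292, 5199, 5051 and 4667 in F, against 514, 1096, 1162, 1186 and 963 in D and differed by 2.35 ± 0.17 (SE, adjusted p = 8.1e-10). It was complete in E. The falls were Cd1d1, which presents lipids (-0.59), and Slamf6 (-0.58). Slamf1, a related receptor that was not in the list, rose by 3.73 and was classed as complete in E, at 79.2% of its difference. Its F minus E difference of 0.78 narrowly did not pass (adjusted p = 0.054). Homing and trafficking receptors rose in 15 of 22 tested and fell in 2. Ccr6, a chemokine receptor, had 1595, 732, 1404, 1464 and 1469.9 in F, against 39.4, 83.6, 25.1, 59 and 71.9 in D and differed by 3.96 ± 0.25 (SE, adjusted p = 1.6e-11). P2ry10 (3.20) and Gpr174 (2.72), receptors for lysophospholipids, rose, like Ccr6, in 2 steps. The 2 that fell were Selplg, the P-selectin ligand (-1.17), and Cxcr4, which holds cells in the bone marrow. Cxcr4 had 10399, 9718, 9066, 10798 and 9544 in F, against 14781, 13489.7, 14584, 16088 and 15812 in D and fell by 0.59 on the log2 scale. It averaged 8256 ± 869 in E (SD, n = 5), a mean below those of both other stages, and had gone past the F level. Ccr7, which leads cells to T zones, was 287 to 677 in D, 396 to 837 in E and 933 to 1577 in F, and rose after E.

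The Gimap genes, a cluster of GTPases found in lymphocytes, rose in all 8 tested. Gimap4 had 4568, 3484, 4456, 2706 and 3319 in F, against 217, 83.8, 152, 59.4 and 120.5 in D, and Gimap8 had 10118, 7661, 9613, 8601 and 8404 in F, against 542, 534, 593, 801 and 783 in D. Every F array lay above every D array for all 8, against 11.2% of all genes tested. Log2 differences ran from 0.97 for Gimap9 and 1.46 for Gimap1 through 2.31 for Gimap6, 2.39 for Gimap5, 3.07 for Gimap3 and 3.08 for Gimap7 to 3.72 for Gimap8 and 4.62 for Gimap4. Of the 8, 7 rose in 2 steps with and without E array 2, and Gimap9 was complete in E. E held 33% of the Gimap4 difference and 69.5% of that of Gimap8. Gimap4 averaged 126 ± 61.7 in D, 401 ± 58.1 in E and 3707 ± 792 in F (SD, n = 5 each).

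Of 13 tested genes of the TNF receptor family 6 rose and 1 fell, against 16.7% and 18.2% of all genes tested. With Cd40 and Tnfrsf13c the rises included Lta (2.29) and Ltb (1.58), the lymphotoxin chains, and Traf1 (1.01), whose call was lost without any of 4 single arrays. Traf6, a signalling adaptor, fell (-1.33). Lta was complete in E, whereas Ltb, at 134 to 232 in D, 205 to 323 in E and 440.2 to 731 in F, rose after E. Of 17 tested NF-kappaB subunits and inhibitors 8 rose and 3 fell. Rel, the c-Rel subunit needed by mature B cells, had 3547, 3241, 2609.8, 2856 and 2320.3 in F, against 1789.8, 1231, 1351, 1369 and 1195 in D, without overlap (log2 difference 1.05 ± 0.12 SE, adjusted p = 3.2e-07), and was complete in E. Nfkbid (0.94), Ikbkb (0.85) and Birc3 (0.80) rose, and Tnfaip3 (-0.46), Nfkbia (-0.28) and Ikbkg (-0.40) fell by small amounts. Tnfaip3 and Nfkbia had overlapping arrays, and single arrays decided the calls of Ikbkg (any of 10) and Tnfaip3 (D array 4 or F array 3). Of 15 tested Toll-like receptor genes 6 rose and 0 fell. Tlr1, a receptor for bacterial lipopeptides, had 1628, 1408, 1451, 1505 and 1544 in F, against 43.6, 64.6, 54.1, 59.2 and 61 in D and differed by 4.12 ± 0.15 (SE, adjusted p = 9.3e-16). Cd180 (1.76) and its partner Ly86 (2.43) rose, as did Tlr4 (2.00).

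The transcription factors of the B lineage moved both ways: of 37 tested 14 rose and 12 fell. Lmo2, an adaptor of transcription complexes, had 6772, 5376, 6068, 5903 and 5209 in F, against 874, 696, 810.3, 606 and 524 in D and differed by 3.02 ± 0.12 (SE, adjusted p = 3.3e-15). Klf3 (2.19), Mef2c (1.86) and Runx3 (1.80) followed. Each of these 4 rose in 2 steps. Zeb2 (-1.36), Id2, an inhibitor of E proteins (-1.27), Irf4, needed for light chain recombination (-1.13), and the E protein Tcf12 (-0.89) fell most. Irf4 had 4823, 4433, 3824, 4196 and 4478 in F, against 8501, 8827, 9261, 10251 and 11015 in D. Id2 fell after E, and Tcf12 was complete in E. The other probe sets of Id2 were not called (-0.92 to -0.70). Of the series' hypodiploid leukaemia genes 11 were tested, 2 rose and 6 fell. Ikzf1, the Ikaros factor (-0.75), fell, and its relative Ikzf3, Aiolos (0.79), rose, complete in E. The early progenitor list had 8 falls and 3 rises among 17 tested. Bst1, a surface ectoenzyme of pre-B and stromal cells, fell in 2 steps (-2.73), as did Sox4 and Cd93, and Bcl11a rose (1.32). Cd24a had a difference of 0.18 ± 0.06 (SE, adjusted p = 0.013), which turned to -0.23 after quantile normalization.

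Immediate early genes rose in 9 and fell in 4 of 25 tested, against 16.7% and 18.2% of all genes tested. Besides Egr3, Egr2 (2.05), Ier5 (1.64), Nr4a1 (1.45) and Egr1 (1.41) rose. Egr1, the related early growth response factor, had 4888, 5296, 4908, 5943 and 6199 in F, against 2809, 2084, 1479, 2695 and 1449.5 in D. All F arrays were above all D arrays, and the E arrays were higher still at 9699, 8112, 8117, 9741 and 9524. Its difference was 1.41 ± 0.15 (SE, adjusted p = 2.9e-07), and E had gone past the F level. The fall of Ier3, a stress response gene, was the largest of the list: it had 118, 83.3, 12.1, 40.8 and 40.1 in F, against 757, 491, 407, 576 and 390.4 in D and differed by -2.70 ± 0.29 (SE, adjusted p = 1.1e-07), in 2 steps.

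Of 22 tested ribosome biogenesis genes 16 rose and 0 fell, with a median log2 difference of 0.51. Mybbp1a, a nucleolar protein, had 2996, 2829, 3570.3, 3243 and 3300.1 in F, against 1680.2, 1103, 940.2, 1081 and 1386 in D, without overlap (log2 difference 1.37 ± 0.13 SE, adjusted p = 1e-08). Polr1a, the large subunit of RNA polymerase I (1.26), and Gnl3 (1.05) rose too. These 3 were complete in E. Of 17 tested glycolysis genes 5 rose and 1 fell, together close to the 34.9% called over all genes tested. The glucose transporters Slc2a1 (1.45) and Slc2a3 (1.65) and the kinase Pdk1 (1.06) rose, and the lactate transporter Slc16a1 fell. Slc16a1 had 1067, 1462, 1089, 1889.9 and 880.4 in F, against 7242, 6221, 6686, 6796 and 6329.8 in D and differed by -2.40 ± 0.24 (SE, adjusted p = 2.7e-07), complete in E. Of 25 tested oxidative phosphorylation genes 8 fell and 1 rose, with log2 differences of -0.53 to 0.17 over the 25 and Uqcrfs1 (-0.53) and Ndufb8 (-0.51) lowest. Together, those called were also close to 34.9%. Of 19 tested lipid synthesis genes 4 rose and 5 fell, close to the shares over all genes tested (16.7% and 18.2%). Scd1, the desaturase that makes monounsaturated fatty acids, had 21837, 20652, 21279.7, 21648 and 22366 in F, against 3158, 3105, 2817, 3097 and 3753 in D and differed by 2.75 ± 0.07 (SE, adjusted p = 2.9e-18). Elovl6, the elongase whose product Scd1 can use, went the other way with 69.7, 122, 124, 37.7 and 111 in F, against 974, 1494, 1720.1, 1214 and 1342 in D (log2 difference -3.51 ± 0.25 SE, adjusted p = 1e-10). Scd1 was complete in E (92.2%), whereas Elovl6 fell in 2 steps. The sterol regulator Srebf2 rose (1.23) and Fdft1 fell (-1.11). Of 12 tested heat shock genes 6 rose and 1 fell, against 16.7% and 18.2% of all genes tested.

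Of 20 tested secretory and plasma cell genes 4 rose and 5 fell, close to the shares over all genes tested (16.7% and 18.2%). Sdc1, the syndecan of plasma cells that pre-B cells also carry, had 105, 252, 187, 431 and 267 in F, against 1072, 1425, 1025, 1277 and 1109 in D and differed by -2.21 ± 0.23 (SE, adjusted p = 6.9e-08). Herpud1, of the unfolded protein response (-2.10), Irf4 and Mzb1 (-0.86) fell. Of 8 tested plasma cell markers 5 fell and 0 rose, with summed signals of the 12 named markers of 10494 to 12497 in F and 19690 to 24259 in D. Of 6 tested class switch and germinal centre genes 1 rose and 3 fell. Of 13 tested marginal zone and B-1 cell markers 5 rose and 3 fell. The shares over all genes tested apply to these lists too.

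**Figure D4:**
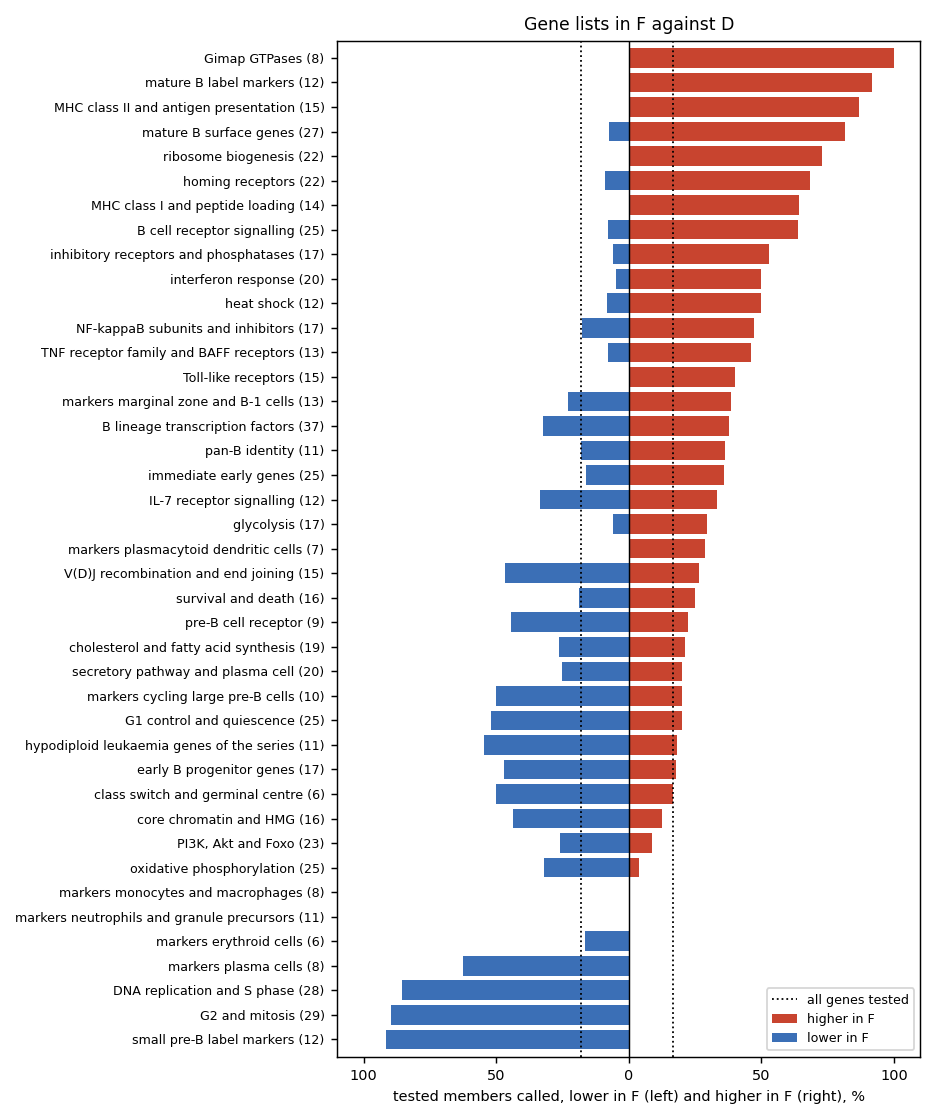
Share of tested members called higher in F (right) or lower in F (left) for each gene list with at least 5 tested genes, with the number tested in parentheses; dotted lines are the shares over all genes tested, 16.7% higher and 18.2% lower. Gimap, MHC class II and mature B surface lists lie far to the right, and the 2 cell division lists and the small pre-B markers far to the left.

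Changes placed after E, whose E minus D part did not pass the test, were fewer. A part of such a change can be present in E: it was 23.2% for Ms4a6b and 30.3% for Aph1b. Of the 300 changes after E, 124 were rises and 176 were falls. The largest rise was that of Clec2i, a C-type lectin, with 2388, 1004, 1866, 1712 and 1069.6 in F, against 203, 143, 226, 217 and 264 in D (log2 difference 2.70 ± 0.22 SE, adjusted p = 1.4e-09). Its E arrays, at 377, 233, 272, 405 and 261, lay near those of D. Ms4a6b, a CD20 family protein, had 496 ± 96.1 in D, 728 ± 241 in E and 2159 ± 151 in F (SD, n = 5 each). Lax1, an adaptor that restrains lymphocyte receptors, and Xkrx rose after E by 2.00 and 2.19 in F minus D. Rapgefl1 fell after E, with 728, 485, 295, 371 and 229 in F, against 1845, 2544, 2614, 2081 and 2609 in D and 2407, 1393, 1553, 1568 and 1393 in E (log2 difference -2.47 ± 0.22 SE, adjusted p = 1.3e-08). Aph1b, a gamma-secretase subunit, fell after E as well (-2.33).

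Changes that went past the F level were the fewest, 53 with all arrays. Hivep3, a zinc finger protein, had 236 ± 115 in D, 3379 ± 654 in E and 1480.4 ± 468 in F (SD, n = 5 each), and its F minus E difference was -1.22. Il18, a cytokine, had 157 ± 58.5 in D, 1308 ± 398 in E and 519 ± 89.3 in F, and Pld4, a lysosomal nuclease, 742 ± 58.2 in D, 3336 ± 288 in E and 2228 ± 380.1 in F (SD, n = 5 each). Mfhas1 and Srpk3 showed the same order of D, F and E, with F minus E differences of -0.64 and -0.62. Pde2a, a phosphodiesterase, went past in the other direction, at 4559.8 ± 226 in D, 856 ± 129 in E and 1585 ± 377 in F (SD, n = 5 each). Each of these 6 genes went past the F level with and without E array 2.

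**Figure D5:**
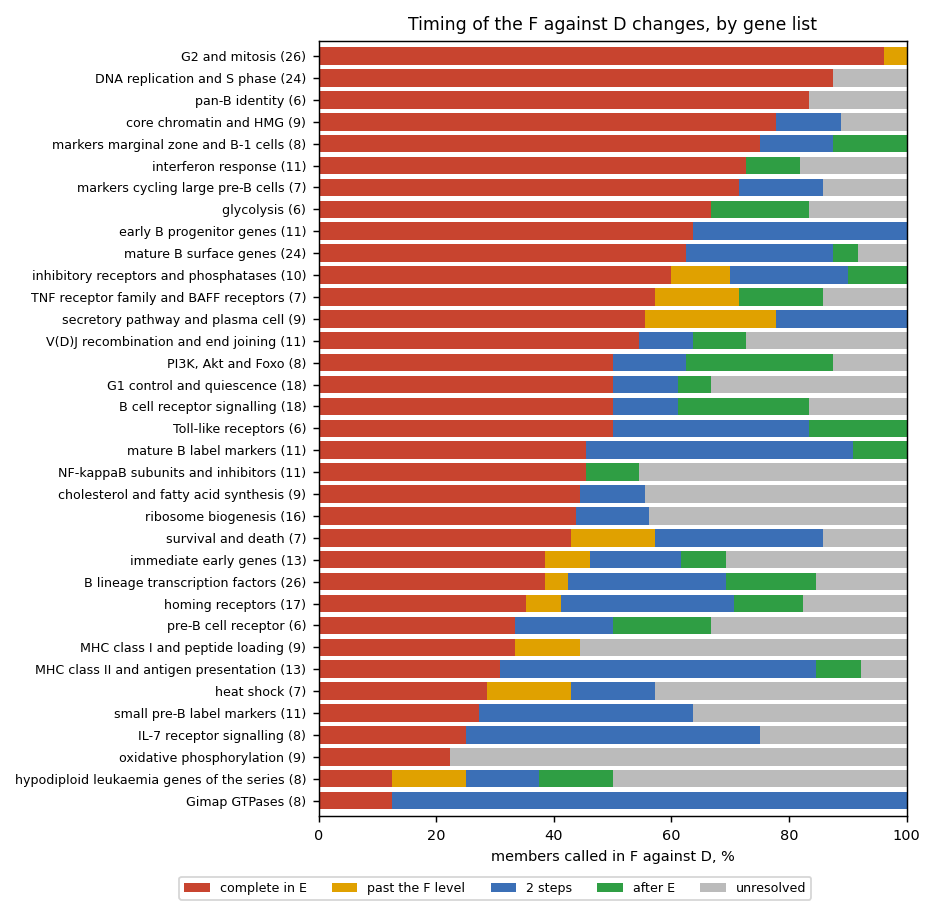
Share of the changes of each list that were complete in E, past the F level, in 2 steps, after E or unresolved, for lists with at least 6 members called in F against D (number in parentheses). The G2 and mitosis and S phase lists are nearly all complete in E, and the Gimap and MHC class II lists are mostly in 2 steps; without E array 2, 12 of the mitotic falls are past the F level.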

How the data were processed

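RNA of each sample was extracted with Arcturus PicoPure and amplified with the NuGEN Ovation Pico system, per the labels, then hybridised to 1 Affymetrix array in 1 colour. The deposited intensity values are linear signals from MAS5 (a name taken from the submitters' processing notes, with no version), and their mean, trimmed by 2% of probe sets at either end, was 500 on each array. A genome build was not given in the sources used here. Precision is limited by how many arrays each group has (5).

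Of 45101 probe sets 34945 named 1 gene, 932 named several (not used) and 9160 were not listed (not used), beside 64 controls. Each of 18193 genes was represented by its probe set with the highest mean over D, E and F, and the 10179 that reached the array median on at least 5 of the 15 arrays were tested. More than 1 probe set was available for 6477 of them. Signals entered as log2(signal + 32) with no further normalization. Linear models were fitted in limma 3.58.1 under R 4.3.3, with a trended and robust eBayes step (statmod 1.5.0; data.table package, version 1.17.8), 3 group means and Benjamini-Hochberg adjustment over all genes tested at 0.05. The fit was tested on simulated data.

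The genes compared and the 44 lists of 752 symbols, 69 of them absent from the probe annotation, were chosen with earlier results of these data known. Named genes are the 15 largest rises and falls without overlap, up to 4 called members of a list in each direction, members of lists with at most 12 tested genes, the label markers, pan-B genes, the leading genes of each class of timing and the brightest markers of other cells. Alternatives were pseudocounts of 8 and 128, no filter or one at the 75th percentile, median centring, quantile normalization, probe set means, each probe set, all 41 arrays, the replicate number as a block, array weights, plain eBayes, F and D arrays alone, each array left out, other rules for timing and, added after seeing the data, sex as a block.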

Additional observations from a re-analysis of the deposited data

Results flagged for a closer look

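For 217 of the genes named in the text, 651 groups of 5 arrays were checked. In 43 of them the highest or lowest array lay apart from the other 4 by more than Dixon's 95% critical value. That value is a gap of 0.71 of the group's range on the log2 scale. Chance alone sets apart about 1 in 20 groups, which is 32.5 here. E array 2 gave 9 and F array 1 gave 9.

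The signals of those arrays follow, each against the range of the other 4 arrays of its group. F array 1 was high for Ebf1 at 5949 against 4702 to 5031, Gab1 at 153 against 85.4 to 101 and Gpr12 at 82 against 2 to 8.7. F array 1 was low for Cd72 at 3711 against 5636 to 6516, Ezh2 at 2715 against 3288 to 3469, Pirb at 284 against 537 to 676 and Rfxap at 194 against 293 to 311. F array 1 was low also for Spib at 3429 against 4862 to 5458 and Vpreb3 at 338 against 504 to 583. F array 2 was low for Ccr6 at 732 against 1404 to 1595 and Kif2c at 65.8 against 373 to 522. F array 3 was high for Sertad4 at 298 against 120.3 to 153. F array 4 was high for Gimap7 at 1020.4 against 789 to 845. F array 5 was high for Cd24a at 28828 against 24684 to 25766 and Hmgb3 at 3284 against 2927 to 3024. F array 5 was low for Cd22 at 5541 against 6039.6 to 6241. D array 1 was low for Cd22 at 1274 against 1659 to 1816, Cd40 at 514 against 963 to 1186 and Gimap1 at 486 against 696 to 748. D array 2 was low for Cd24a at 20292 against 22962 to 24139. D array 3 was low for Cdkn2c at 2011 against 2553 to 2717 and Tap2 at 61.7 against 117 to 142. D array 4 was high for Cxcr5 at 18.1 against 3.3 to 5.7 and Ngp at 2256 against 1289.6 to 1485. D array 5 was high for Chd4 at 4239 against 2049 to 2431. D array 5 was low for Bcl2l11 at 3795 against 5036 to 5374 and Bid at 187 against 343 to 418. E array 1 was high for Rapgefl1 at 2407 against 1393 to 1568 and Slc2a1 at 3695 against 2966 to 3123. E array 1 was low for Hmgb3 at 2979 against 3427 to 3585 and Sdc1 at 131 against 171 to 178. E array 2 was high for Ccnb2 at 1797 against 733 to 853, Dntt at 3289 against 139 to 247 and Ngp at 9099 against 877 to 1594. E array 2 was low for Btla at 13584 against 15921 to 16466, Fcrla at 5871 against 7327 to 7959.8, Gimap9 at 1021 against 1610.3 to 1747 and Ikzf3 at 18139 against 19945 to 20342. E array 2 was low also for S1pr1 at 1911 against 2389 to 2573 and Srpk3 at 10629 against 13416 to 14448. E array 3 was high for Bfsp2 at 902 against 519.7 to 608. E array 4 was low for Xkrx at 9.9 against 79.5 to 102. E array 5 was low for H2-Oa at 757 against 1011 to 1079.

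Between the sexes, 0 of 10179 F minus D differences passed limma's interaction test at an adjusted p under 0.05, and 421 had an unadjusted p under 0.05. E array 2 was also high for small pre-B, neutrophil, monocyte and erythroid markers, and their part in its values was not tested.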

How the results depend on the processing

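The 3557 changes between F and D, 1703 up and 1854 down, and the 1508 complete in E stayed within 1.5 times of these counts under both other pseudocounts, both other filters, quantile normalization, median centring, probe set means, array weights, plain eBayes, sex as a block and, for the counts of changes, the F and D arrays alone. A fit of all 41 arrays called 1376 (639 up, 737 down) with 642 complete in E; its spread is shared with the earlier stages, and the cause was not tested. Testing each probe set called 6265 (3060 up, 3205 down) with 2674 complete, over 19655 probe sets. At least 2-fold, 1092 changed (520 up, 572 down) and 562 of them were complete. By the rule that asks the 95% interval of F minus E to be small, 572 were complete, and with a share of at least 50% or 90% it was 1886 or 1108. Leaving out single arrays gave 3159 to 3563 changes, 1552 to 1704 up, 1593 to 1859 down and 1314 to 1489 complete. With the replicate number as a block 3710 changed and 1566 were complete; of named genes Klf2 and Stat5a gained a call there and Ikbkg and Chd4 lost theirs. Nothing in the labels pairs the numbers, and same-numbered arrays deviated together at correlations of 0.038 to 0.083 for F and D, 0.029 to 0.112 for E and D and 0.049 to 0.136 for F and E, with the own number the best match for 5, 4 and 4 of 5. Wls also split replicates 1 and 2 from 3 to 5 in every group (42 to 102.3 against 1175 to 1721 in F, 114 to 174 against 937 to 1103 in D, 95.7 to 219.7 against 2363 to 2641 in E), as a hint from the data, and the cause was not tested.

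Of 198 named genes that passed, 39 did not in the fit of all 41 arrays. Cd24a turned to -0.23 after quantile normalization and Ighm to 0.32 (not passing) with probe set means. Probe set means also ended the calls of Bcl2l11, Cd24a, Chd4, Ikbkg, Tnfaip3, Trp53bp1 and Xiap, and plain eBayes those of Bcl2l11, Bfsp2, Cd24a, Chd4, Ighm and Ikbkg. Quantile normalization ended those of Hmgn1 and Prkdc, no filter those of Bfsp2, Ikbkg and Prkdc, array weights those of Bfsp2 and Traf1, the F and D arrays alone those of Bfsp2 and Ikbkg, and median centring or sex as a block that of Ikbkg. Leaving out 1 array at a time, 9 named genes lost their call. Ikbkg lost it without F arrays 3 or 5, or D arrays 1, 2, 3, 4 or 5, or E arrays 1, 3 or 4 (adjusted p up to 0.15). Prkdc lost it without F arrays 3, 4 or 5, or D arrays 1, 2, 3 or 4, or E array 1 (adjusted p up to 0.13). Bfsp2 lost it without F arrays 3, 4 or 5, or D arrays 1, 2, 3 or 5 (adjusted p up to 0.12). Traf1 lost it without F arrays 1 or 2, or D arrays 1 or 3 (adjusted p up to 0.1). Chd4 lost it without F arrays 1, 3 or 4, or D arrays 1, 2, 3 or 4 (adjusted p up to 0.097). Erap1 lost it without F arrays 2 or 3, or D arrays 1 or 5 (adjusted p up to 0.092). Ighm lost it without F arrays 2 or 5, or D array 5 (adjusted p up to 0.076). Tnfaip3 lost it without F array 3, or D array 4 (adjusted p up to 0.076). Bcl2l11 lost it without F arrays 1 or 5, or D arrays 2 or 3 (adjusted p up to 0.063). Klf2 gained a call without F array 1 (adjusted p = 0.035), Mki67, Ngp, Lyz1 and Car2 without E array 2 (adjusted p = 0.0052, 0.0092, 0.015 and 0.027) and Stat5a without F array 3, or D arrays 2 or 5 (adjusted p up to 0.047). Of 113 called genes with other tested probe sets, 85 had all of them called in the same direction. Another 25 had some that were not called and none opposite, and 3 (Ccnd3, Ighm and Xiap) had one called in the opposite direction. None of the others was called for Bcl2l11, Bid, Cd24a, Chd4, Erap1, Gab2, Id2, Ikbkg, Il4ra, Mfhas1, Mtor, Ndufb8, Pim1, Tapbp, Trp53bp1 or Tyms. Their changes rest on the brightest probe set. All 198 kept their direction within each sex, as read from Xist after seeing the data. The genes were called on these same arrays, so the kept direction is no independent check.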
